A study of Mus musculus with 21 samples.

Results

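Mammary epithelium is organised by a small set of transcription factors, and 10 of them were followed here: Gata3, Elf3, Elf5, Ehf, Foxa1, Esr1, Pgr, Sox9, Sox10 and Trp63. They were chosen by name, with earlier results of these data known. Each symbol matched 1 Ensembl identifier among the 48440 gene identifiers of the count table. The RNA came from 3 mouse cell lines in which Esrp2-as, a long noncoding RNA antisense to the splicing regulator Esrp2, had been raised or lowered. M27H4 and M6 are lines made from mammary tumours of mice with an SV40 T antigen transgene driven from the C3(1) promoter, while 3T3-L1 cells are preadipocytes, a fibroblast-like model of fat cell precursors. The groups were M27H4 with Esrp2-as overexpression (3 replicates) and its empty vector control (3), M6 with Esrp2-as knockdown by LNA antisense gapmers (2) and a control that the labels also call empty vector (2), and 3T3-L1 with Esrp2-as overexpression (2) and its empty vector control (2). All cells grew in DMEM with 10% FCS. The labels do not say whether a line was 1 clone, and beyond the term biological replicate nothing says that replicates were separate cultures, so the p values measure the spread between these samples.

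As background, Gata3 and Foxa1 open chromatin for luminal genes, and Esr1 and Pgr are the receptors for oestrogen and progesterone in the hormone-sensing luminal cells. Elf5 drives the milk-producing alveolar fate, and with Elf3 and Ehf belongs to the epithelial branch of the ETS family, whose DNA-binding domain reads a GGAA core. Sox9 and Sox10 are SoxE factors tied to progenitor states, and Trp63 encodes p63, the factor of basal and myoepithelial cells.

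Libraries were made from ribosome-depleted total RNA, and 21 sequenced columns were summed into 14 biological replicates of 34892461 to 328493417 counts. The lanes named below are read from the last number in each column name, which is taken here to be a sequencing lane. Levels are in CPM, the count relative to the scaled library size, and are given as mean ± SD over replicates. Esrp2-as itself was at 61.2, 65.9 and 15.9 CPM in M27H4 overexpression, against 0.731, 1.25 and 0.889 CPM in the controls (edgeR adjusted p = 0.00152). It was at 0.527 and 0.851 CPM in M6 knockdown, against 2.96 and 2.42 CPM in the controls, which was lower in both replicates without passing the test (edgeR adjusted p = 0.363). In 3T3-L1 it was at 45.8 and 35.5 CPM with overexpression, against 0.25 and 0.355 CPM without (edgeR adjusted p = 0.00258). With a term for replicate pairs the edgeR adjusted p was 0.0795 in M27H4, 0.19 in M6 and 0.0824 in 3T3-L1. Both M27H4 libraries of replicate 1 stood apart, with a root mean square log2 difference of 0.89 to 1.01 from replicates 2 and 3, which differed from each other by 0.56 to 0.60. Replicates 1 and 2 of M6 were 0.88 apart in knockdown and 0.93 in control, and those of 3T3-L1 were 0.52 apart with overexpression and 0.56 in control. Line markers were set beside the labels: the summed level of 10 epithelial markers was 170 to 317 CPM in M27H4 control, 4041 to 5298 CPM in M6 control and 23.2 to 31.3 CPM in 3T3-L1 control. The sum over 12 preadipocyte and fibroblast markers ran the other way, at 930 to 1122 CPM in M27H4 control, 92.2 to 103.7 CPM in M6 control and 6264 to 7115 CPM in 3T3-L1 control. Most of the M27H4 sum was Pdgfra, at 866 ± 84.6 CPM, against 16.5 ± 1.05 CPM in M6 control and 275 ± 72 CPM in 3T3-L1 control. Of the 12, 5 were called higher in M27H4 than in M6 control (background 15.2%) and 1 lower (15%), at an edgeR adjusted p under 0.05. Of 6 endothelial markers, Kdr was at 26.8 ± 5.07 CPM in M27H4 control (n = 3), where Cdh5, Emcn and Tie1 were at 0, and the 8 immune markers summed to at most 13.7 CPM in any replicate. All 10 epithelial markers were lower in M27H4 control than in M6 control, and their part in the results below was not tested.

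The promoters of the factors whose levels separated the lines are shown for the bases upstream of their annotated starts, from RefSeq on GRCm38.p6. Capitals mark the ETS core, GGAA on the printed strand or TTCC, its reverse complement. Esr1 is shown at its first and at a second annotated start, because the estimated split of counts between them varied by line, which was not tested.
Elf3, chr1:135258569-135258722, minus strand: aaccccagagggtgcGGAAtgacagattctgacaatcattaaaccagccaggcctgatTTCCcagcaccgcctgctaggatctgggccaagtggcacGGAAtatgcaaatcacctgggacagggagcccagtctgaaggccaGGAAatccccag
Gata3, chr2:9878601-9878850, minus strand: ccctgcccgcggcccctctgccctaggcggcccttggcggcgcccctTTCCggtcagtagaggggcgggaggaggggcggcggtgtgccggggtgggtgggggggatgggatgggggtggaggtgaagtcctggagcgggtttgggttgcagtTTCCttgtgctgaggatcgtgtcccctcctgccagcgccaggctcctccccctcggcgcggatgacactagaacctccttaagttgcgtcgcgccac
Foxa1, chr12:57546122-57546361, minus strand: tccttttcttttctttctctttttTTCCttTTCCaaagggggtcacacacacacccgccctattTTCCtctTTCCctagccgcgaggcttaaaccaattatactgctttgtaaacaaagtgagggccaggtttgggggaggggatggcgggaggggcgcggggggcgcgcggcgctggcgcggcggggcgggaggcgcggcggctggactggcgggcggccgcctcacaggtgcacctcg
Esr1 first start, chr10:4611739-4611988, plus strand: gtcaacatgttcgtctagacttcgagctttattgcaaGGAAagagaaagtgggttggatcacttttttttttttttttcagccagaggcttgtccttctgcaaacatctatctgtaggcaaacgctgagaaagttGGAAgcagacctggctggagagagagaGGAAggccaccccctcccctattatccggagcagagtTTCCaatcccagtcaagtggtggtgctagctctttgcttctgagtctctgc
Esr1 second start, chr10:4709908-4710154, plus strand: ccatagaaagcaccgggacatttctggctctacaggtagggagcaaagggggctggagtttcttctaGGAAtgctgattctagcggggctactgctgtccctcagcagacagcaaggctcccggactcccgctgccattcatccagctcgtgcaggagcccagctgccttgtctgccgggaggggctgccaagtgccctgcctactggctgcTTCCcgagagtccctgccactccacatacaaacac
Pgr, chr9:8899583-8899832, plus strand: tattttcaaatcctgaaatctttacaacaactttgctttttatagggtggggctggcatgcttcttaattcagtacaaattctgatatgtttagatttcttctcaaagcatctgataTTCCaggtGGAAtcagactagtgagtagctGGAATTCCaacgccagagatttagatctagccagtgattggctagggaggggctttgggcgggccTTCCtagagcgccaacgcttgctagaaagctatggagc

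A GGAA core on either strand stood in each of these windows, as it did in 93.4% of 32851 RefSeq promoter windows of 250 bases, so its presence sets none of them apart. The Gata3 window held 19 CpG and the Foxa1 window 21 CpG, against a median of 6 in windows of 250 bases, while the Elf3 window of 154 bases held 3 and the Pgr window 4. GGGCGG, searched on both strands, occurred 2 times in the Gata3 window, 3 times in the Foxa1 window and 1 time in the Pgr window, and was present in 32.7% of all windows of 250 bases. TATAAA, also on both strands, occurred 1 time in the Pgr window and in 12.4% of all windows. Ehf, Sox9, Sox10 and Trp63 had no window to print.

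The first question was how the factors differed between the lines, taken from control replicates only. Elf5 passed the filter on low counts through 1 M6 and 1 M27H4 replicate only, and it was called in no comparison between lines. Sox10 did not pass that filter, and Pgr passed it through M27H4 only, where it is high, so Pgr is described by its counts and left out of the tallies between lines. Of the other 8 factors, 7 differed between M27H4 and M6, 4 between M27H4 and 3T3-L1, and 7 between M6 and 3T3-L1, at an edgeR adjusted p under 0.05 over 21237 genes. These counts stand against a background of 30.2% of all genes called between M27H4 and M6, 36.6% between M27H4 and 3T3-L1, and 39.4% between M6 and 3T3-L1. Because the factors were chosen with earlier results of these data known, the counts are a description, with no test over the set. Against M6, M27H4 was higher for Gata3, Esr1 and Trp63 (3 factors, background 15.2%) and lower for Elf3, Ehf, Foxa1 and Sox9 (4 factors, background 15%). Against 3T3-L1, M27H4 was higher for Gata3, Elf3, Ehf and Esr1 (4 factors, background 17.8%) and lower for 0 (18.9%). M6 was higher than 3T3-L1 for Gata3, Elf3, Ehf, Foxa1, Esr1 and Sox9 (6 factors, background 18.9%) and lower for Trp63 (1 factor, 20.5%). In lines grown in bulk, fewer cells with a transcript and less of it per cell cannot be told apart.

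Gata3 (ENSMUSG00000015619, chromosome 2 from 9857078 to 9890034, minus strand of GRCm38) had the highest level per exon length of any factor in M27H4. Its level was 161.5, 86.0 and 79.3 CPM in M27H4 control, 19.0 and 18.5 CPM in M6 control, and 3.59 and 3.00 CPM in 3T3-L1 control. The lines did not overlap, and M27H4 replicate 1 lay far above the other 2 M27H4 controls. The log2 difference was 2.54 (SE 0.29, edgeR adjusted p = 1.83e-05) for M27H4 over M6, 5.05 (SE 0.33, 1.45e-07) for M27H4 over 3T3-L1 and 2.51 (SE 0.31, 2.35e-05) for M6 over 3T3-L1. Without replicate 1 of both M27H4 groups the first 2 differences were 2.08 and 4.61, both still called. The transcript that starts beside the window printed above held 92.6 to 98.0% of Gata3 counts in every replicate. A gene on the same strand, 9230102O04Rik, shares 77 bp of exon with Gata3 and held at most 658 counts in a replicate.

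Esr1 (ENSMUSG00000019768, chromosome 10 from 4611593 to 5005614), the oestrogen receptor alpha gene, followed the same order of lines. It was at 33.0, 24.7 and 32.6 CPM in M27H4 control, 7.91 and 6.17 CPM in M6 control, and 0.132 and 0.299 CPM in 3T3-L1 control. The ranges of the 3 lines were separate. M27H4 was higher than M6 by a log2 difference of 2.10 (SE 0.39, edgeR adjusted p = 0.000964) and higher than 3T3-L1 by 7.17 (SE 0.52, 2.99e-07). M6 was higher than 3T3-L1 by 5.07 (SE 0.48, 2.75e-06).

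The lines also differed in which Esr1 start carried the estimated counts. Transcripts from the second start, at position 4710155, made up 12.6, 19.8, 39.4 and 25.9% of Esr1 counts in the 4 M27H4 control columns and 21.6, 27.3, 48.7 and 21.5% in the 4 M27H4 overexpression columns. In M6 the share was 12.6% in 1 control column, 0% in the other 3, and 0, 0 and 0.333% in the knockdown columns. The lowest M27H4 column therefore equalled the highest M6 column, and all others lay apart. Columns of 1 library on different lanes differed widely, 19.8 and 39.4% in M27H4 control replicate 2, so the shares are a description of how StringTie split reads among overlapping transcripts and were not tested.

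Pgr (ENSMUSG00000031870, chromosome 9 from 8899833 to 8968611), the progesterone receptor gene and a known target of oestrogen signalling, was detected in M27H4 only. It had 36, 101 and 94 counts in the M27H4 control replicates, or 0.585, 0.529 and 0.767 CPM, and 0 counts in every M6 and 3T3-L1 replicate. A floor was set at 3 counts over the group at 0. The mean Pgr level of the M27H4 controls was 74.5-fold the floor of M6 control and 71.8-fold that of 3T3-L1 control. These folds are a description with no test. The lanes that carried columns of all 3 lines showed the same: their M6 and 3T3-L1 columns were at 0.

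Elf3 (ENSMUSG00000003051, chromosome 1 from 135253575 to 135258568) was highest in M6, so between M27H4 and M6 it differed in the direction opposite to Gata3 and Esr1, while all 3 genes were lowest in 3T3-L1. It was at 0.585, 0.314 and 0.269 CPM in M27H4 control, 19.8 and 18.9 CPM in M6 control, and 0.118 and 0.0808 CPM in 3T3-L1 control. The 3 lines did not overlap, and the summed M6 replicates lay within 1 CPM of each other. The columns of M6 control replicate 2 were further apart, from 14.6 to 20 CPM of column totals. M27H4 was lower than M6 by a log2 difference of -5.67 (SE 0.35, edgeR adjusted p = 1.33e-07) and higher than 3T3-L1 by 1.89 (SE 0.38, 0.00149), and M6 was higher than 3T3-L1 by 7.56 (SE 0.46, 5.86e-08). A transcript that starts inside the longer one, at position 135258438, held 50.2 to 58.1% of Elf3 counts in M6 control but at most 19.4% in M27H4 control and 0% in 3T3-L1 control. Those shares rest on 36, 60 and 33 Elf3 counts in the M27H4 controls and 26 and 10 in the 3T3-L1 controls.

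Ehf (ENSMUSG00000012350, chromosome 2 from 103263433 to 103303278), an epithelial ETS factor like Elf3, had the highest level per exon length of any factor in M6. It was at 31.5, 2.60 and 5.36 CPM in M27H4 control, 162.9 and 110.4 CPM in M6 control, and 0.583 and 0.695 CPM in 3T3-L1 control. The lines did not overlap, but the M27H4 controls spread widely, and 2 lanes of M27H4 control replicate 2 gave 0.920 and 3.67 CPM of their column totals. The log2 difference was -3.39 (SE 0.99, edgeR adjusted p = 0.0284) for M27H4 over M6, 4.36 (SE 1.2, 0.0185) for M27H4 over 3T3-L1, and 7.74 (SE 1.42, 0.00206) for M6 over 3T3-L1. Both M27H4 calls were lost under some settings, with an edgeR adjusted p up to 0.155 against M6 and 0.129 against 3T3-L1. Without replicate 1 of both M27H4 groups the log2 difference was -5.17 against M6 (edgeR adjusted p = 1.13e-05) and 2.61 against 3T3-L1 (0.000887).

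Elf5 (ENSMUSG00000027186, chromosome 2 from 103411688 to 103450989), the alveolar ETS factor, was at the edge of detection. It had 0, 3 and 0 counts in M27H4 control, 8 and 14 counts in M6 control, and 0 and 0 counts in 3T3-L1 control. In M6 control this was 0.166 and 0.0454 CPM. None of the 3 line comparisons was called, at edgeR adjusted p values of 0.147 for M27H4 over M6, 0.388 for M27H4 over 3T3-L1 and 0.0544 for M6 over 3T3-L1.

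Foxa1 (ENSMUSG00000035451, chromosome 12 from 57540628 to 57546916), the pioneer factor of oestrogen receptor binding, was present in M6 and close to 0 elsewhere, so it did not follow Esr1. It was at 0, 0.0524 and 0 CPM in M27H4 control, 6.17 and 2.96 CPM in M6 control, and 0.0273 and 0.113 CPM in 3T3-L1 control. Both M6 replicates lay above every replicate of the other lines, whose ranges overlapped. M27H4 was lower than M6 by a log2 difference of -7.53 (SE 1.03, edgeR adjusted p = 9.35e-05), and M6 was higher than 3T3-L1 by 6.10 (SE 1.10, 0.000684). M27H4 and 3T3-L1 differed by -1.43 (95% interval -3.83 to 0.96, edgeR adjusted p = 0.344).

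Sox9 (ENSMUSG00000000567, chromosome 11 from 112782224 to 112787760), the progenitor-associated SoxE factor, was expressed in all 3 lines. It was at 10.9, 9.32 and 7.60 CPM in M27H4 control, 59.7 and 37.9 CPM in M6 control, and 11.6 and 13.5 CPM in 3T3-L1 control. M6 lay apart, and the M27H4 range ended just under the 3T3-L1 range. The log2 difference was -2.40 (SE 0.25, edgeR adjusted p = 7.69e-06) for M27H4 over M6, 1.96 (SE 0.28, 9.77e-05) for M6 over 3T3-L1, and -0.44 (95% interval -0.97 to 0.10, 0.189) for M27H4 over 3T3-L1. Sox10 (ENSMUSG00000033006, chromosome 15 from 79154908 to 79165240), its close relative, had 6 counts in M27H4 overexpression replicate 1 and 0 in all other replicates, where 3 counts would be 0.00974 to 0.0633 CPM.

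Trp63 (ENSMUSG00000022510, chromosome 16 from 25683763 to 25892102) had its lowest level in M6, the line with the most epithelial marker RNA. It was at 6.84, 3.83 and 7.76 CPM in M27H4 control, 1.90 and 1.47 CPM in M6 control, and 6.84 and 12.7 CPM in 3T3-L1 control. M6 lay below the other lines, which overlapped. The log2 difference was 1.87 (SE 0.46, edgeR adjusted p = 0.00717) for M27H4 over M6, -2.55 (SE 0.50, 0.00113) for M6 over 3T3-L1 and -0.67 (95% interval -1.58 to 0.23, 0.237) for M27H4 over 3T3-L1. Without M6 control replicate 2 the M27H4 and M6 controls differed by 1.70 with an edgeR adjusted p of 0.0615.

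**Figure D1:**
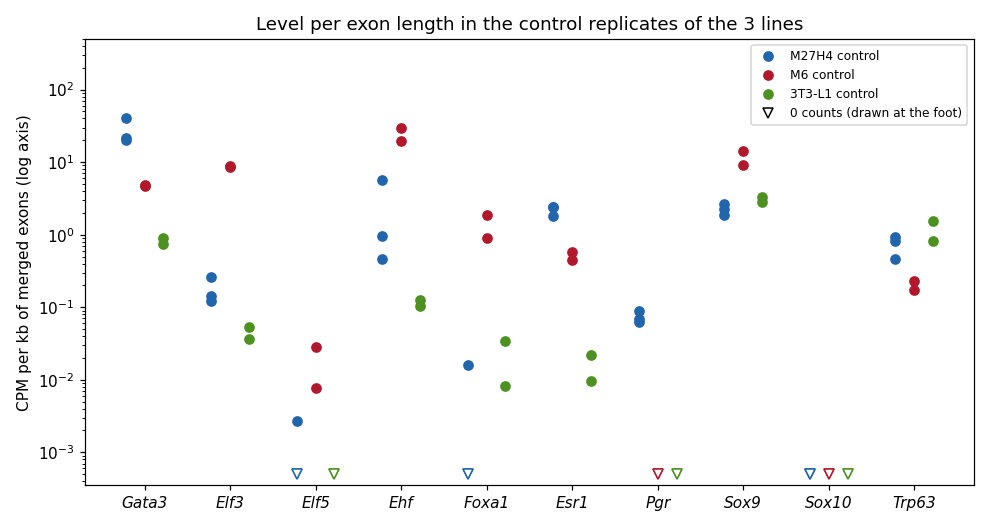
CPM per kilobase of exon of each factor in the control replicates of M27H4, M6 and 3T3-L1, on a log axis; points are replicates, and open triangles at the foot are replicates with 0 counts. Gata3, Esr1 and Pgr are highest in M27H4, Elf3, Ehf, Foxa1 and Sox9 are highest in M6, and Trp63 is lowest in M6.

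Compared per kilobase of all annotated exons merged, the leading factor differed by line. In M27H4 control Gata3 stood first at 27.4 ± 11.5 CPM per kb (SD, n = 3), above Ehf at 2.36 ± 2.86, Sox9 at 2.24 ± 0.398 and Esr1 at 2.20 ± 0.341. On this measure these 3 did not differ beyond their spread. Esr1 was divided by 13661 bases, while its transcripts with the most counts are 2612, 4344 and 6339 bases long. Its level per kb is therefore set low against Sox9, whose merged length of 4135 bases is that of its 1 transcript. Ranks between genes depend on that choice of length. In M6 control Ehf led at 24.5 ± 6.66 CPM per kb (SD, n = 2), followed by Sox9 at 11.8 ± 3.73 and Elf3 at 8.72 ± 0.290, which lay within the Sox9 spread, and then Gata3 at 4.71 ± 0.0948. In 3T3-L1 control Sox9 came first at 3.03 ± 0.317 CPM per kb (SD, n = 2), with Trp63 at 1.17 ± 0.497 and Gata3 at 0.828 ± 0.103, closer together than the Trp63 spread.

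Low levels in a line can be set beside the lanes its columns came from. All 3T3-L1 columns came from lanes that also held M27H4 and M6 columns, and Elf3, Ehf, Foxa1 and Esr1 there were all under 1 CPM; whether carried reads contribute was not tested. The lane of M27H4 replicate 1, whose labelled columns were all M27H4, gave 0.258 CPM of Elf3 in the overexpression column and 0.595 CPM in the control column. Ehf in that lane was at 12.5 CPM with overexpression and 32.0 CPM without, above every other M27H4 column.

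The genes around these factors were read from lists of mammary gland genes, also chosen with earlier results of these data known. Of 18 hormone-sensing luminal genes, 16 were tested, and in M27H4 over 3T3-L1 9 were higher (background 17.8%) and 1 lower (18.9%), with a median log2 difference of 2.02 against -0.02 over all genes tested. In M27H4 over M6, 5 were higher (background 15.2%) and 7 lower (15%), with a median of -1.08 against 0.02. The higher ones included Greb1, an oestrogen-induced growth regulator, at 67.4 ± 11.6 CPM in M27H4 control (SD, n = 3) and 0.294 ± 0.0346 CPM in M6 control (n = 2), a log2 difference of 7.80 (edgeR adjusted p = 4.47e-07). Areg, an EGF receptor ligand induced by oestrogen, was higher by 2.32 (edgeR adjusted p = 1.06e-05). The lower ones were Krt8, Krt18, Krt19, Prom1, Prlr, Myb and Xbp1. Krt8, a luminal keratin gene, was at 16.3 ± 8.33 CPM in M27H4 control and 889 ± 327 CPM in M6 control (log2 -5.76, edgeR adjusted p = 6.66e-06), Krt18 differed by -4.07 (8.19e-07) and Prom1 by -6.50 (6.00e-05). In M6 over 3T3-L1, 10 of the 16 were higher (background 18.9%) and 0 lower (20.5%), with a median of 4.12 against -0.05.

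Of 22 progenitor and alveolar genes, 18 were tested, and in M27H4 over M6 4 were higher and 10 lower, with a median log2 difference of -1.42. For this list and the next ones, the background in that comparison was 15.2% of all genes higher and 15% lower, with a median of 0.02. Aldh1a3, a progenitor retinaldehyde dehydrogenase, was at 0.274 ± 0.265 CPM in M27H4 control and 50.4 ± 19.5 CPM in M6 control (log2 -7.40, edgeR adjusted p = 7.60e-06). Stat5a, the prolactin-activated factor of alveolar cells, was higher in M27H4 by 2.11 (edgeR adjusted p = 0.000286). Of 24 basal and myoepithelial genes, 23 were tested, with 6 higher and 11 lower (median -1.01). Oxtr, the oxytocin receptor gene, was at 27 ± 3.42 CPM in M27H4 control and 0.0844 ± 0.119 CPM in M6 control (log2 7.82, edgeR adjusted p = 2.54e-05). Snai2 was higher by 3.88 (4.61e-06), while Krt5, a basal keratin, was lower by -5.47 (3.54e-06), the opposite of Trp63. Of 23 partners and co-regulators, all tested, 3 were higher and 11 lower (median -0.74), among them Ovol2, an epithelial-state factor, at -6.48 (edgeR adjusted p = 1.16e-05).

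The second question was whether changing Esrp2-as moved the factors. None of the 9 factors tested was called in any treatment comparison, by edgeR or by DESeq2. Sox10 was not tested. Pgr had 0 counts in both groups of M6 and of 3T3-L1, so it could not be called there or in tests of effects that include those lines. By edgeR the calls over all genes were 0.00942% in M27H4 overexpression, 0.137% in M6 knockdown and 0.00471% in 3T3-L1 overexpression, and by DESeq2 0.0283% in M27H4, 1.12% in M6 and 0.0567% in 3T3-L1. At an unadjusted p under 0.05 there were 0 of 9 tested factors in M27H4, 3 in M6 (Gata3, Elf5 and Sox9) and 0 in 3T3-L1, where 358, 1331 and 201 of 21237 genes passed. Elf5 reached the cutoff of the filter on low counts in 1 M6 replicate only, a control, and in 1 M27H4 replicate. Its p therefore rests on the replicates that let it be tested and is not read as a change. In simulated M6 knockdown data the test recovered 9% of genes changed 2-fold and 78% of genes changed 4-fold. Those genes were drawn from genes with an average log2 CPM above 0, so the rates do not cover Elf5 or Pgr. The simulated replicates had no pairing.

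In M6, Gata3 was at 11.1 and 11 CPM with knockdown, against 19.0 and 18.5 CPM in control. The knockdown replicates lay below the controls, with almost no spread within either group. The log2 difference was -0.76 (SE 0.29, 95% interval -1.38 to -0.13), with an unadjusted p of 0.0214 by edgeR and an edgeR adjusted p of 0.644, so it was no call. With a term for replicate pairs the edgeR adjusted p was 0.128, and leaving out 1 replicate at a time kept the difference between -0.77 and -0.67.

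Sox9 was at 37.8 and 26.6 CPM in M6 knockdown, against 59.7 and 37.9 CPM in control. The summed replicates of the groups met without overlapping, and each replicate number differed in the same direction. Single columns did overlap. In the lane that both M6 groups shared, replicate 2 was at 25.5 CPM of column totals with knockdown and 26.3 CPM in control. The other control columns of replicate 2 were at 38.4 and 37.4 CPM, from lanes without a knockdown column. Replicate 1, in the shared lane, was at 40.5 CPM with knockdown and 64.6 CPM in control. The log2 difference was -0.60 (SE 0.27, 95% interval -1.19 to -0.01, edgeR adjusted p = 0.774), and it ran from -0.88 to -0.16 when 1 replicate was left out. Esr1 was at 11 and 8.70 CPM in M6 knockdown, against 7.91 and 6.17 CPM in control, a log2 difference of 0.49 (SE 0.40, edgeR adjusted p = 1). Both knockdown replicates lay above both controls, and the 95% interval of -0.37 to 1.34 included 0.

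The other factors in M6 knockdown gave no call either. Trp63 was at 1.16 and 0.952 CPM, against 1.90 and 1.47 CPM in control (log2 -0.67, SE 0.49). Ehf was at 150.0 and 126.9 CPM, against 162.9 and 110.4 CPM in control, and the ranges overlapped (log2 0.02, SE 1.05). Elf3 was at 18.3 and 15.6 CPM, against 19.8 and 18.9 CPM in control (log2 -0.19, SE 0.34), and Foxa1 at 4.81 and 2.34 CPM, against 6.17 and 2.96 CPM (log2 -0.35, SE 0.85). Elf5 had 0 counts in both knockdown replicates, against 8 and 14 counts in the controls, with an edgeR adjusted p of 0.731. The controls were at 0.166 and 0.0454 CPM, where 3 counts over the knockdown group would be 0.0133 CPM.

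In M27H4 overexpression the groups overlapped for every factor with a group mean over 1 CPM. Gata3 was at 102.0, 75.6 and 96.4 CPM with overexpression, against 161.5, 86.0 and 79.3 CPM in control (log2 -0.25, 95% interval -0.76 to 0.25). Esr1 was at 26.8, 23.9 and 33.1 CPM, against 33.0, 24.7 and 32.6 CPM in control (log2 -0.11, interval -0.80 to 0.58). The 95% intervals of Gata3 and Esr1 left room for less than a 2-fold change in either direction.

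Pgr was at 1.11, 0.516 and 0.841 CPM in M27H4 overexpression, against 0.585, 0.529 and 0.767 CPM in control (log2 0.37, SE 0.46). Sox9 was at 11, 9.79 and 10.2 CPM, against 10.9, 9.32 and 7.60 CPM in control (log2 0.16, interval -0.32 to 0.64), and Trp63 at 5.36, 3.52 and 8.32 CPM, against 6.84, 3.83 and 7.76 CPM (log2 -0.10, SE 0.38). Their ranges overlapped. Ehf was at 12.1, 2.95 and 4.14 CPM with overexpression, against 31.5, 2.60 and 5.36 CPM in control (log2 -1.06, SE 0.88), where replicate 1 was the highest of both groups. Elf3 stayed under 0.6 CPM and Foxa1 under 0.3 CPM in every M27H4 replicate.

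In 3T3-L1 overexpression, Sox9 was at 11.5 and 16.3 CPM, against 11.6 and 13.5 CPM in control (log2 0.15, 95% interval -0.44 to 0.74). Trp63 was at 7.08 and 13.9 CPM, against 6.84 and 12.7 CPM in control (log2 0.10, SE 0.47). For both genes the groups overlapped, and replicate 2 was the higher in each group. Gata3 was at 3.91 and 3.78 CPM with overexpression, against 3.59 and 3.00 CPM in control (log2 0.22, SE 0.29, edgeR adjusted p = 1), with the overexpression replicates just above the controls. Elf3, Ehf, Foxa1 and Esr1 were all under 1 CPM in both 3T3-L1 groups.

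The test of the difference between treatment effects found 0 factors called, both for knockdown in M6 minus overexpression in M27H4 (0.0283% of genes called) and for overexpression in M27H4 minus overexpression in 3T3-L1 (0.00471%). By DESeq2 the count was also 0, where 0.593% and 0.0563% of genes were called. At an unadjusted p under 0.05 there were 1 factor (Elf5) in the first, where 1000 of 21237 genes passed, and 0 in the second, where 320 passed. Because Elf5 passed the filter through 1 replicate of M6 and 1 of M27H4, that p is not read as a difference.

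**Figure D2:**
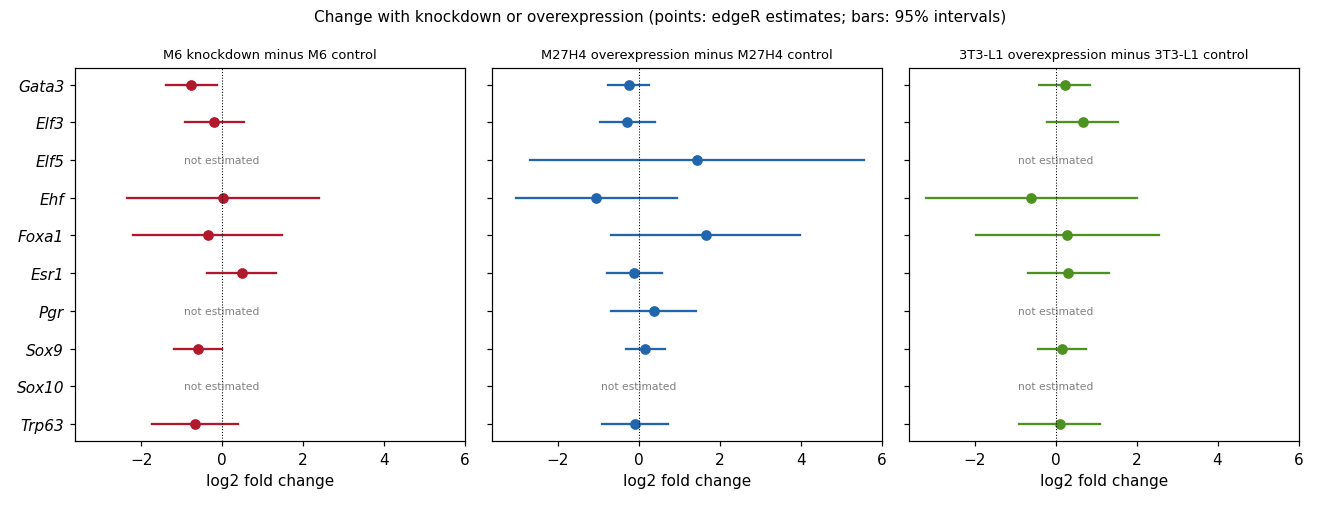
Log2 fold change of each factor in the 3 treatment comparisons (points, edgeR estimates) with its 95% interval (bars), on a shared horizontal axis; the dotted line at 0 is no difference, and no estimate is drawn where a group had 0 counts or the gene was not tested. No factor was called, and of the intervals drawn those of Gata3 and Sox9 in M6 knockdown lie below 0.

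**Figure D3:**
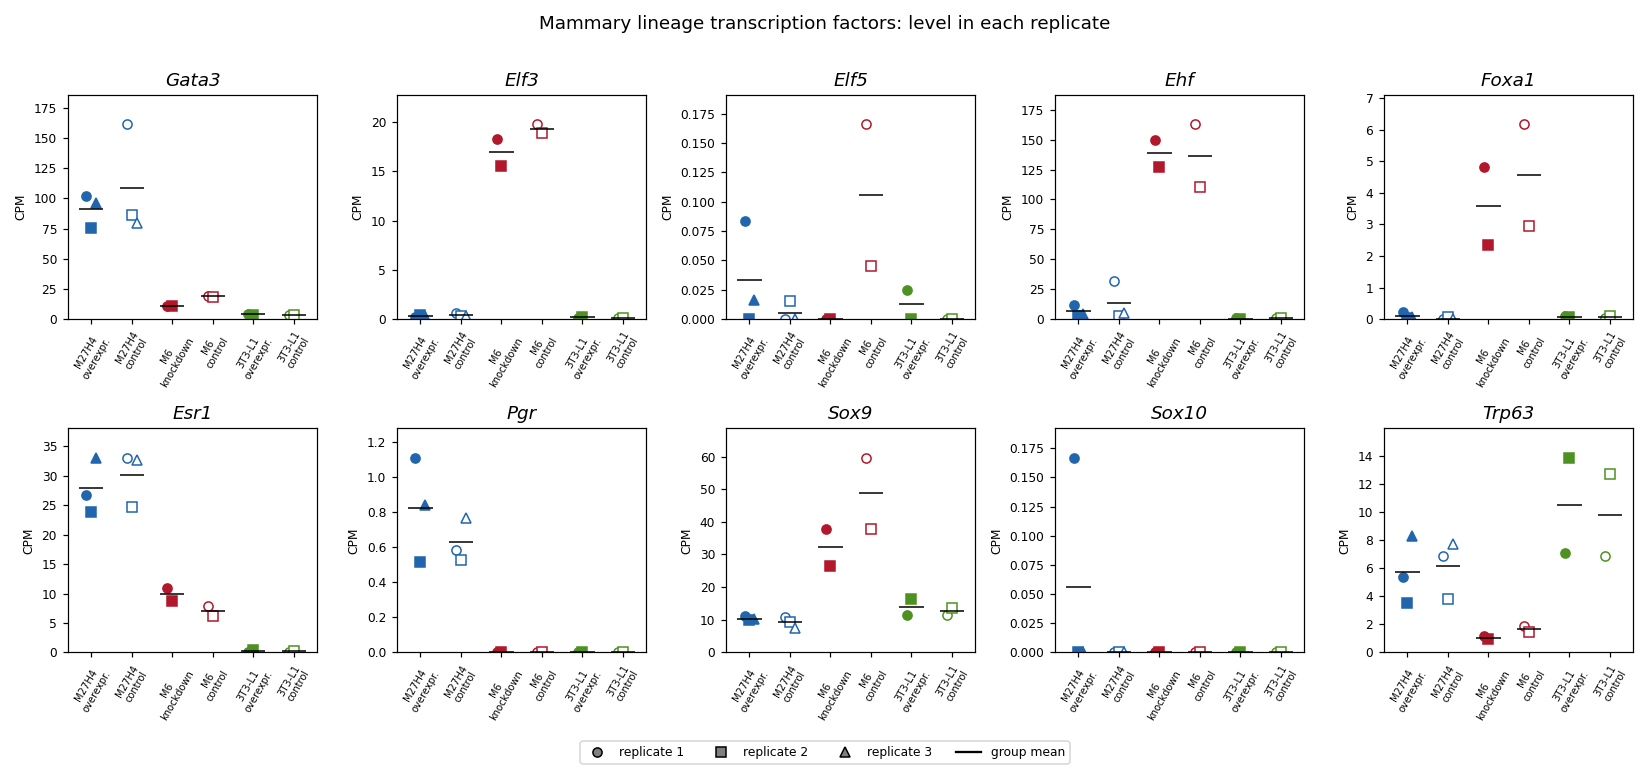
CPM of each factor in all 14 replicates by group, on linear axes that start at 0 and differ between panels; filled points are knockdown or overexpression replicates, open points are control replicates and lines are group means. Gata3 and Esr1 are highest in both M27H4 groups, and Elf3, Ehf, Foxa1 and Sox9 are highest in both M6 groups.

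Of the hormone-sensing genes, 1 of 16 tested was called in M6 knockdown (background 0.137%) and 0 in overexpression in M27H4 (0.00942%) or 3T3-L1 (0.00471%). Areg was at 43.7 ± 12.1 CPM in M6 knockdown and 11.3 ± 2.03 CPM in M6 control (SD, n = 2 each), a log2 rise of 1.95 (edgeR adjusted p = 0.0116). The call was lost in a fit of the 2 groups alone (0.391), without knockdown replicate 1 (0.0636) and without control replicate 1 (0.0782). No gene of the progenitor, basal or partner lists was called in any treatment comparison.

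Transcript starts of Trp63 were split between the long form (TA) and the form that lacks the transactivation domain (delta-N), the main product in normal basal epithelium. In 3T3-L1 the delta-N share was 100, 54.3 and 38.9% of Trp63 counts in the overexpression columns, against 30.7, 0.744 and 2.47% in the control columns. The overexpression column lay above the control column in each of the 3 lanes they shared, and columns of 1 library also differed, 100 and 54.3% in overexpression replicate 1 and 30.7 and 0.744% in control replicate 1. In M27H4 the share was 22.3, 38.0, 2.44 and 1.98% with overexpression, against 15.2, 3.50, 5.77 and 25.9% in control, and the ranges overlapped. In M6 it was 0, 54.5 and 21.2% with knockdown, against 20.7, 19.1, 6.17 and 85.6% in control, also overlapping. These shares were not tested.

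**Figure D4:**
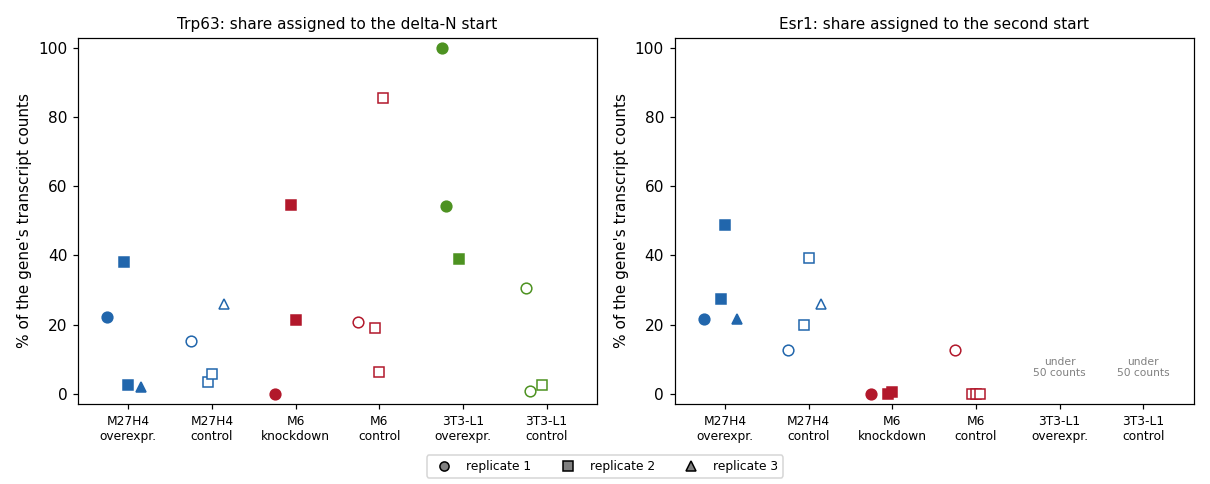
Share of Trp63 counts assigned to the delta-N start and of Esr1 counts assigned to the second start, in percent, with a point for each sequenced column that holds at least 50 counts of the gene; filled points are knockdown or overexpression columns and open points control columns. The Trp63 points of 1 library lie far apart in several groups, and the Esr1 points are at or near 0 in M6 but for 1 control column at 12.6%.

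The gene nearest to each factor in the shape of its level over the 6 groups was found by root mean square difference of centred log2 CPM, over the 6 group means, for factors with a group mean of at least 1 CPM. Deptor, an mTOR inhibitor, lay nearest to Gata3 at 0.08, with 91.7 CPM in M27H4 control, 16.7 CPM in M6 control and 3.36 CPM in 3T3-L1 control. Tmeff2 came next at 0.24. Marveld2, a tight junction protein gene, lay nearest to Elf3 at 0.18, followed by Krt8-ps at 0.19, a pseudogene that can share reads with Krt8. Rab15 at 0.35 and Acpp at 0.38 lay nearest to Ehf, and Tnik at 0.29 and Epha7 at 0.32 to Foxa1. Rhbdl2 lay nearest to Esr1 at 0.14, with 32.3 CPM in M27H4 control, 8.92 CPM in M6 control and 0.247 CPM in 3T3-L1 control, and Artn came next at 0.29. Ispd at 0.14 and Pgap3 at 0.16 lay nearest to Sox9, and Pyroxd2 at 0.12 and Cacna1a at 0.15 to Trp63.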

How the data were processed

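The study sequenced RNA of 3 mouse cell lines. Per the submitters' processing notes, cutadapt, HISAT2, StringTie and edgeR were used with mm10 and GRCm38; versions, annotation release and strand setting are not given in the sources used here. The authors deposited expected counts per gene and transcript, estimated by StringTie as whole numbers. The deposited CPM tables were not used, and 2 of their columns of values matched no sample.

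Technical replicates were summed as labelled. In replicate 2 of both M6 groups the summed columns carry different sample numbers in their names, while in M27H4 and 3T3-L1 they carry the same number. The M6 control columns of replicate 2 came from lanes 20281, 20282 and 20283, and the knockdown columns from lanes 20281 and 20998. Identifiers were matched to GENCODE M21 (48058 of 48440, the rest holding 0.0515% of counts). edgeR 4.0.16 in R 4.3.3 fitted 1 robust quasi-likelihood model over all 6 groups (filterByExpr, TMM, 8 residual degrees of freedom, 21237 genes), and p was adjusted by Benjamini-Hochberg over all genes. CPM is relative to the TMM-scaled library, and a floor is 3 counts, which covers counting error only. Deeper replicates have less counting error. The factors are always named; from each list up to 3 called genes per direction with the smallest p are, and the 2 nearest genes by pattern; some genes that this rule names are not reported here. The factors and lists were chosen with earlier results of these data known.

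Replicate numbers may pair the samples: deviations of same-numbered samples correlated at 0.57 in M6, 0.34 to 0.60 in M27H4 and 0.36 in 3T3-L1. With 2 replicates a group, M6 and 3T3-L1 each gave 1 independent value. M27H4 samples numbered 2 and 3 also correlated across groups, at 0.20 and 0.31. Same-numbered samples of M27H4 and of 3T3-L1 came from the same lanes, so pairs and lanes cannot be told apart there. Alternatives were DESeq2 1.42.0, RLE scaling, no filter, the replicate block, fits of 2 groups, 1 lane for M6, means of both groups of a line, and leaving out replicates. The model was tested on simulated counts of 20662 genes.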

Additional observations from a re-analysis of the deposited data

How the results depend on the processing

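The counts of factors called here include Pgr, which passed the filter through M27H4 only. Between M27H4 and M6 the count was 8, and 6 to 8 under the alternatives. It was 5 between M27H4 and 3T3-L1 (4 to 6 under the alternatives) and 7 between M6 and 3T3-L1 (7 to 8). In the treatment comparisons and between their effects it was 0, also under every alternative. Counts over all genes moved more. In M6 knockdown 29 genes were called, against 233 by DESeq2, 64 with no filter on low counts, 0 in a fit of the 2 groups only and 6 to 60 with 1 replicate left out. In M27H4 overexpression 2 were called, against 6 by DESeq2, 1 in a fit of the 2 groups only, 1 to 2 with 1 replicate left out, and 0 without replicate 1 of both groups, an alternative chosen after seeing the data. In 3T3-L1 overexpression 1 was called, against 12 by DESeq2, 2 with no filter, 4 in a fit of the 2 groups only and 0 to 5 with 1 replicate left out. For the M6 minus M27H4 effect the count was 6, against 89 by DESeq2, 26 with no filter and 0 to 26 with 1 replicate left out; for the M27H4 minus 3T3-L1 effect it was 1, against 11 by DESeq2, 0 with RLE size factors and 0 to 5 with 1 replicate left out. With the replicate block the counts were 293 in M6, 1 in M27H4, 0 in 3T3-L1, 112 for the M6 minus M27H4 effect and 0 for the M27H4 minus 3T3-L1 effect; no factor gained or lost a call under it. The causes were not tested.

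Uncalled differences of factors changed sign when 1 replicate was left out. The log2 ranges were -1.89 to 0.66 for Ehf, -0.51 to 0.08 for Elf3, -0.44 to 0.14 for Gata3 and -0.47 to 0.17 for Trp63 in M27H4; -0.23 to 0.40 for Ehf and -0.95 to 0.35 for Foxa1 in M6; and -0.48 to 1.52 for Foxa1, -0.55 to 0.95 for Esr1, -0.12 to 0.37 for Sox9 and -0.47 to 0.60 for Trp63 in 3T3-L1. Without replicate 1 of both M27H4 groups the overexpression differences were 0.10 for Gata3, 0.21 for Elf3, 0.03 for Esr1 and 0.07 for Trp63. With the mean of both groups of each line, Elf5 in M27H4 over M6 was 0.52. With 2 or 3 replicates a group and 3 counts as the floor, depth limits what can be said of Elf5, Pgr, Sox10 and Foxa1 outside M6.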

Other observations

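Of 19 close relatives of the factors, 15 were tested, and in M27H4 over M6 3 were higher (background 15.2%) and 5 lower (15%), with a median log2 difference of -0.15 against 0.02 over all genes. Foxa2, the paralog of Foxa1, was at 0.210 ± 0.183 CPM in M27H4 control (SD, n = 3) and 38.1 ± 16.3 CPM in M6 control (n = 2), a log2 difference of -7.36 (edgeR adjusted p = 5.96e-05). The 3 relatives higher in M27H4 than in M6 were Gata2 (log2 4.46, edgeR adjusted p = 0.000232), Gata6 (4.15, 0.000751) and Gata4 (6.5, 0.0341). There they differed in the same direction as Gata3. Between M6 and 3T3-L1, Gata2 and Gata6 ran opposite to Gata3. Gata6 was at 0.0373 ± 0.0528 CPM in M6 control and 12.2 ± 2.71 CPM in 3T3-L1 control (n = 2 each, log2 -7.76, edgeR adjusted p = 8.95e-06), and Gata2 differed by -6.78 (9.91e-06). Esr2, the second oestrogen receptor gene, was at 0.0122 ± 0.0212 CPM in M27H4 control (n = 3) and 2.03 ± 0.105 CPM in 3T3-L1 control (n = 2), a log2 difference of -6.84 (7.65e-06).

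Of 14 known SoxE target genes, 9 were tested, and in M27H4 over M6 1 was higher (background 15.2%) and 5 lower (15%). Erbb3, a neuregulin receptor gene, was at 6.43 ± 0.486 CPM in M27H4 control (n = 3) and 133 ± 25.7 CPM in M6 control (n = 2), a log2 difference of -4.37 (edgeR adjusted p = 3.09e-08), and Mitf was higher by 3.00 (1.27e-06).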
